A study of Homo sapiens with 22 samples.

Results

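Translation factors are the proteins that start, extend, end and recycle each round of protein synthesis on the ribosome. The genes described here were taken by name: 50 genes that encode initiation, elongation, termination and recycling factors, cytoplasmic poly(A)-binding proteins and one kinase of an elongation factor, of 58278 gene entries in the count tables. They comprise 2 genes of eIF1, 3 subunits of eIF2, 2 proteins that can deliver initiator tRNA in place of eIF2, 5 subunits of eIF2B, 13 subunits of eIF3 and 9 genes of the eIF4 group. The others are EIF5, EIF5B and EIF6, 2 genes of eIF5A, 5 genes of the elongation factors eEF1 and eEF2, EEF2K, 3 termination and recycling factors and 2 poly(A)-binding proteins. All 50 were found, and 49 had enough reads to be tested in both assays. EEF1G, the gamma subunit of eEF1, was listed at 0 reads in all 22 libraries, where 3 reads would have been 0.018 to 0.684 counts in 1e6 of the library. Whether this came from the annotation or the counting was not tested. The 0 is therefore not read as absence of the RNA, and the gene has no value here.

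The cells were LN308, an established human line of astrocytoma origin that lacks p53. They were exposed to tunicamycin at 2.5 µg/ml, which blocks N-linked glycosylation, or to thapsigargin at 200 nM, which blocks the calcium pump of the endoplasmic reticulum (ER), for 2 h or 6 h. They were set against cells labelled untreated at 0 h, for which the protocol names the solvent DMSO as control. Gene RNA levels came from RNA-Seq and ribosome footprints (fragments shielded by 80S monosomes after cycloheximide) from Ribo-Seq, each made from 3 libraries per tunicamycin time and 3 untreated libraries, and from 1 library per thapsigargin time. Nothing in the labels says that replicates came from separate cultures, so the p-values measure the spread between these libraries.

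Initiation begins when eIF2 brings the initiator tRNA to the small ribosomal subunit and eIF4F (the cap-binding protein eIF4E, the scaffold eIF4G and the helicase eIF4A) brings the mRNA, while eIF3, eIF1 and eIF5 hold the complex together and control the choice of start codon. eIF2 leaves bound to GDP and is recharged by eIF2B; in ER stress the kinase PERK phosphorylates the alpha subunit of eIF2, which then blocks eIF2B and lowers initiation. Elongation is carried by eEF1, which brings aminoacyl-tRNA, and by eEF2, which moves the ribosome along by one codon and is blocked when eEF2 kinase phosphorylates it. The mRNAs of many elongation factors begin with a 5′ terminal oligopyrimidine (TOP) tract, through which mTOR signalling controls how well they are translated.

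The starts of these genes are shown first because they bear on that last property. RefSeq promoter sequences (GRCh38.p14) were at hand for 41 of the 50 members. In 12 of these 41 genes at least 1 annotated transcript start was a C followed by further pyrimidines, for a run of at least 5, a feature of 12 of the 57 promoters listed for members (21.1%) and of 4.07% of the 35116 promoters in the table. The lines give 10 bases before the start and 20 from it, on the strand of the gene, 5′ to 3′, with that run in capitals. The first 5 genes are members whose mRNAs are reported as TOP mRNAs, 2 more are subunits of eIF2 and eIF3 that share the feature. EIF1B and EIF5, whose footprints moved most at 6 h of tunicamycin, are given for contrast and have no such run.
EEF1A1 (chr6:73521013-73521042, minus strand): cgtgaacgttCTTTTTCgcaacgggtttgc
EEF1B2 (chr2:206159885-206159914, plus strand): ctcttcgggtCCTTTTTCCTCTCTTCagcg
EEF2 (chr19:3985444-3985473, minus strand): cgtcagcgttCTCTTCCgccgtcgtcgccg
EIF3F (chr11:7987327-7987356, plus strand): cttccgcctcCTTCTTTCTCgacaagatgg
EIF4B (chr12:53006446-53006475, plus strand): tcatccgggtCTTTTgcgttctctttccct
EIF2S3 (chrX:24054946-24054975, plus strand): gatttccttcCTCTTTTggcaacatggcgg
EIF3D (chr22:36529147-36529176, minus strand): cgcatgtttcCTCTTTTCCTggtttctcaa
EIF1B (chr3:40309697-40309726, plus strand): cattttgtgcgagaagccgcagcgccgcct
EIF5 (chr14:103334227-103334256, plus strand): ggcgttgttcagtcagagcgagaacattcc
Both strands of the 300-base promoters were also searched for 2 elements of ER stress genes. TGATGNAA, the core bound by ATF4 with its partners, was in none of the 57 promoters of members and in 3.62% of all promoters. The ER stress response element, CCAAT followed by CCACG at a fixed spacing, was in 1, that of EIF2A, and in 0.0769% of all promoters. It is printed with 5 bases on each side and its fixed bases in capitals.
EIF2A (chr3:150546705-150546733, plus strand): aaacaCCAATtcgctgtctCCACGcatga

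RNA-Seq libraries held 101371822 to 166586145 counts, of which the members took 1.36% to 1.76%, and Ribo-Seq libraries held 4387173 to 29183769, of which they took 0.793% to 1.17%. RNA-Seq untreated replicate 1 stood apart: it had reads in 53489 genes, while all others of that assay had them in 38264 to 40331. Its TMM scaling factor was 1.46, against 0.904 to 1.06 in the rest. Levels are given below as CPM, counts in 1e6 of the library size multiplied by that factor, so its values depend on the scaling more than any others. On this scale it was the lowest of the 3 untreated libraries for 39 of 49 members, but by library size alone for 20 (and the highest for 25). Tunicamycin replicate 1 was the highest of its group for 37 of 49 members after 2 h of tunicamycin and for 35 of 49 after 6 h, and for 35 and 34 by library size alone. Ribo-Seq untreated replicate 1 also differed from its group, with 29183769 counts, against 8477747 and 9774377 in replicates 2 and 3. Mitochondrial mRNAs took 0.869% of its counts, against 2.33% and 2.07% in those 2. In the current annotation 31 members overlap another gene (8 of them small RNA genes only), and no source states whether reads were counted by strand, so reads of overlapping genes could be shared. The main counts at 6 h are therefore also given from replicates 2 and 3 alone; where no fit is named, called means called by edgeR over all replicates. Of 12 glial markers 9 averaged at least 1 CPM in RNA-Seq (among them GFAP, VIM and SOX2, with AQP4 under 0.1 CPM). So did 0 of 10 blood markers and 6 of 10 epithelial markers (among them KRT8 and KRT18). The summed epithelial markers were at 90.4 to 138 CPM after 6 h of tunicamycin and at 77.7 to 91.5 CPM in untreated cells, and their part in the results was not tested. In these bulk samples, fewer cells of a type and less RNA per cell cannot be told apart.

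After 6 h of tunicamycin, RNA of most translation factor genes stood somewhat above untreated cells, and 1 gene, EIF1B, passed the test. The median log2 fold change of the 49 members was 0.34, beside -0.27 over all 41130 genes tested, and 44 of 49 were above 0. The median over all genes rests on 1 library: without RNA-Seq untreated replicate 1 it was -0.01 over 31144 genes, beside 0.27 over the members. Of the 49, 1 (2.04%) was called by edgeR's quasi-likelihood test at an adjusted p under 0.05, against 1.5% of all genes; DESeq2 called 3 (EIF1B, EIF2S2 and EIF5, 6.12%), against 5.82%. The CPM ranges of the treated and untreated libraries did not overlap for 21 members (20 higher and 1 lower, 42.9%), against 21.1% of all genes (10.5% higher and 10.6% lower). Scaling matters at this size: with library size alone in place of TMM factors the median over all genes moved to -0.58 and that of the members to 0.08, with 30 of 49 above 0. The ranges by library size alone did not overlap for 9 members, 7 higher and 2 lower, against 5.47% and 17.6% of all genes. Below, statements that the groups of a gene did not overlap refer to TMM-scaled CPM. For most of the 21 members in RNA-Seq this did not hold by library size alone. It did hold for EIF1B, EIF5, EIF2S2 and EEF2K. From replicates 2 and 3 alone the members' median was 0.11, with 38 of 49 above 0, and that of all genes -0.02.

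Footprints gave the same single call. In Ribo-Seq at 6 h, 1 of 49 members was called, EIF1B again, against 0.84% of 19411 genes (DESeq2 called 2 members, 4.08%, against 3.55%), and the median over members was 0.17, beside -0.07 over all genes. The members' median was 0.094 without Ribo-Seq 6 h replicate 1, 0.31 without Ribo-Seq untreated replicate 1 and 0.25 from replicates 2 and 3 alone. The ranges did not overlap for 13 members (10 higher and 3 lower, 26.5%), against 20.6% of all genes (9.54% higher and 11.1% lower); by library size alone they did not overlap for 11 (8 higher and 3 lower), against 7.90% higher and 12.7% lower of all genes. At 2 h edgeR called 0 of 49 members in RNA-Seq (0 at an unadjusted p under 0.05 and 0 by DESeq2) and 0 of 49 in Ribo-Seq (2 at an unadjusted p under 0.05 and 0 by DESeq2). Over all genes edgeR called 0.00973% in RNA-Seq (8.06% at an unadjusted p under 0.05 and 0.163% by DESeq2) and 0% in Ribo-Seq (3.19% and 0.0155%). In RNA-Seq at 2 h the direction itself rests on replicate 1: 44 of 49 members were above 0 over all replicates, but 8 of 49 from replicates 2 and 3 alone.

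After 2 h of tunicamycin no member was called, and the largest upward shifts were those of EIF2S2 in RNA-Seq and EIF1B in Ribo-Seq. EIF2S2 RNA was at 328, 181 and 184 CPM after 2 h, against 110.4, 167 and 166 CPM in untreated cells (0.65 ± 0.35), with treated replicate 1 far above the rest and no overlap of the groups. EIF1B footprints were at 45.1, 33.3 and 20.2 CPM after 2 h, against 14.4, 20.6 and 17.2 CPM in untreated cells (0.93 ± 0.34, edgeR adjusted p = 1), and the groups overlapped. EIF5A2, a paralog of eIF5A, had footprints at 34.5, 28.1 and 45.5 CPM after 2 h, against 16.9, 19.7 and 26.1 CPM in untreated cells (0.78 ± 0.29, edgeR adjusted p = 1), with no overlap. In Ribo-Seq log2 fold changes at 2 h lay between -0.35 (EIF2S3) and 0.00 (EIF2S1) for the 3 eIF2 genes, between -0.36 (EIF3J) and 0.36 (EIF3G) for the 13 eIF3 genes, and between -0.71 (EIF4B) and 0.19 (EIF4E2) for the 9 eIF4 genes.

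**Figure D1:**
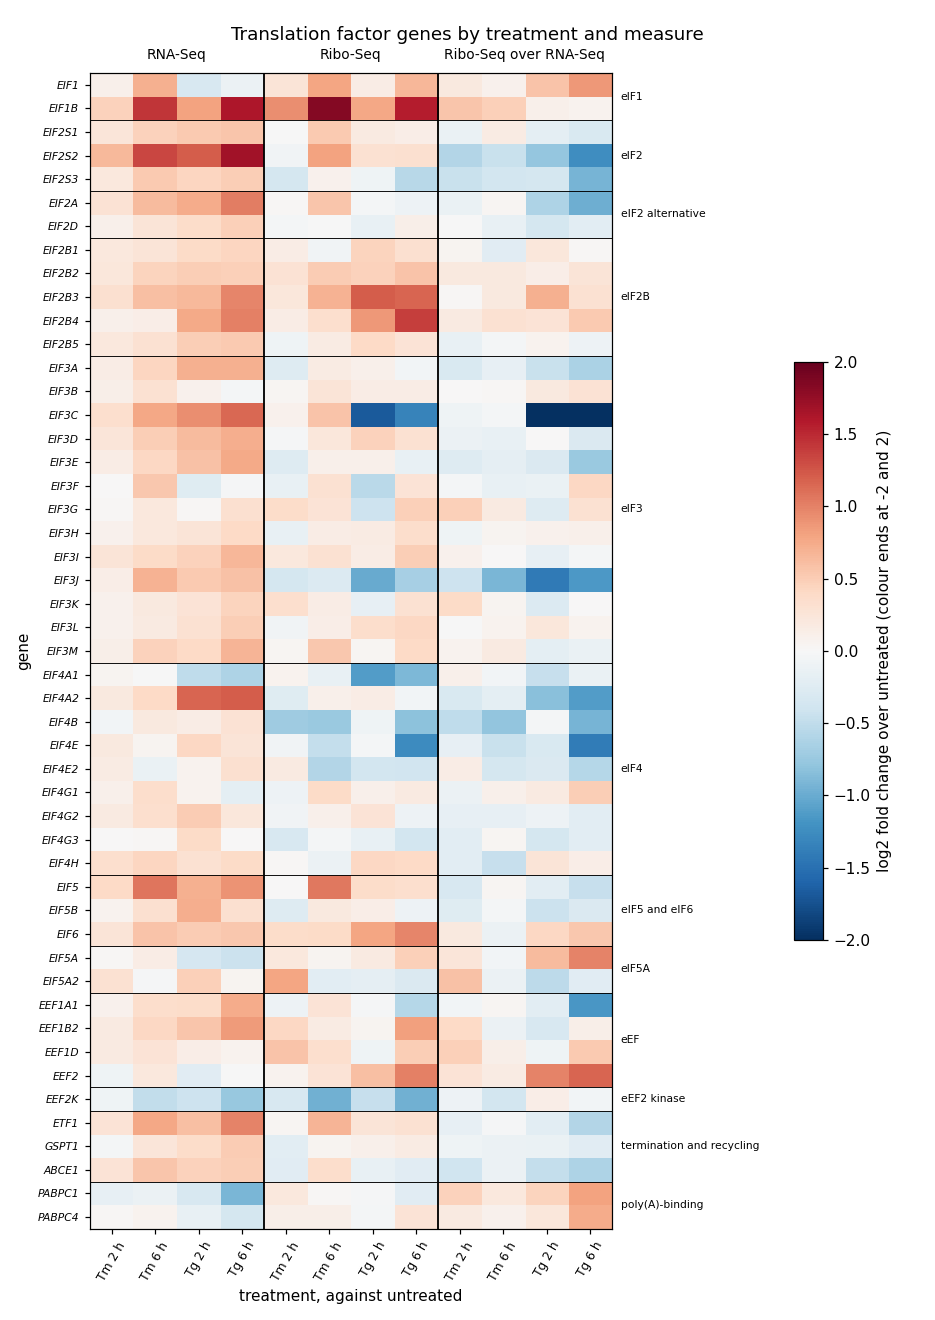
Colours give the log2 fold change of 49 translation factor genes (rows, by class) over untreated cells for tunicamycin (Tm) and thapsigargin (Tg) at 2 h and 6 h, in RNA-Seq, Ribo-Seq and their ratio; thapsigargin columns are single libraries. EIF1B is red in each RNA-Seq and Ribo-Seq column, EEF2K is blue in each of them, and EIF2S2 is red in RNA-Seq and blue in all columns of the ratio.

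EIF1B, a close relative of the start-codon factor eIF1, lies at chr3:40309707-40312424 (GRCh38.p14) and was the member that changed most. Its RNA was at 49.5, 44.2 and 47.8 CPM after 6 h of tunicamycin, against 10.6, 21.4 and 20.6 CPM in untreated cells. All 3 treated libraries were above all 3 untreated ones, and it rose by a log2 fold change of 1.43 ± 0.27 (SE; edgeR adjusted p = 0.0275). Its footprints were at 84.9, 45.8 and 56.3 CPM after 6 h, against 14.4, 20.6 and 17.2 CPM in untreated cells. These groups did not overlap either, and footprints rose by 1.84 ± 0.34 (SE; edgeR adjusted p = 0.0291). At 2 h RNA was at 23.0, 23.8 and 25.5 CPM and footprints at 45.1, 33.3 and 20.2 CPM, and neither was called. Both calls are close to the threshold. In RNA-Seq the call held without untreated replicate 1 (edgeR adjusted p = 0.00795) and was lost without any other single library, with log2 fold changes of 1.18 to 1.60 and adjusted p up to 0.104 over the 6 fits. In Ribo-Seq it was lost without any 1 of the 6 libraries, with log2 fold changes of 1.56 to 2.02 and edgeR adjusted p of 0.0528 to 0.132, and also with library size alone.

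EIF1 encodes eIF1 itself, which sits at the P site of the scanning ribosome and discourages initiation at poor start codons. Its RNA was at 249, 668 and 766 CPM after 6 h of tunicamycin, against 109, 426 and 495 CPM in untreated cells. Replicate 1 was the lowest library in both groups, the groups overlapped, and the difference was not called (log2 fold change 0.71 ± 0.60, edgeR adjusted p = 0.506). Footprints were at 513, 449 and 476 CPM after 6 h, all above the 169.6, 331 and 332 CPM of untreated cells (log2 fold change 0.79 ± 0.30, edgeR adjusted p = 0.32, not called).

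**Figure D2:**
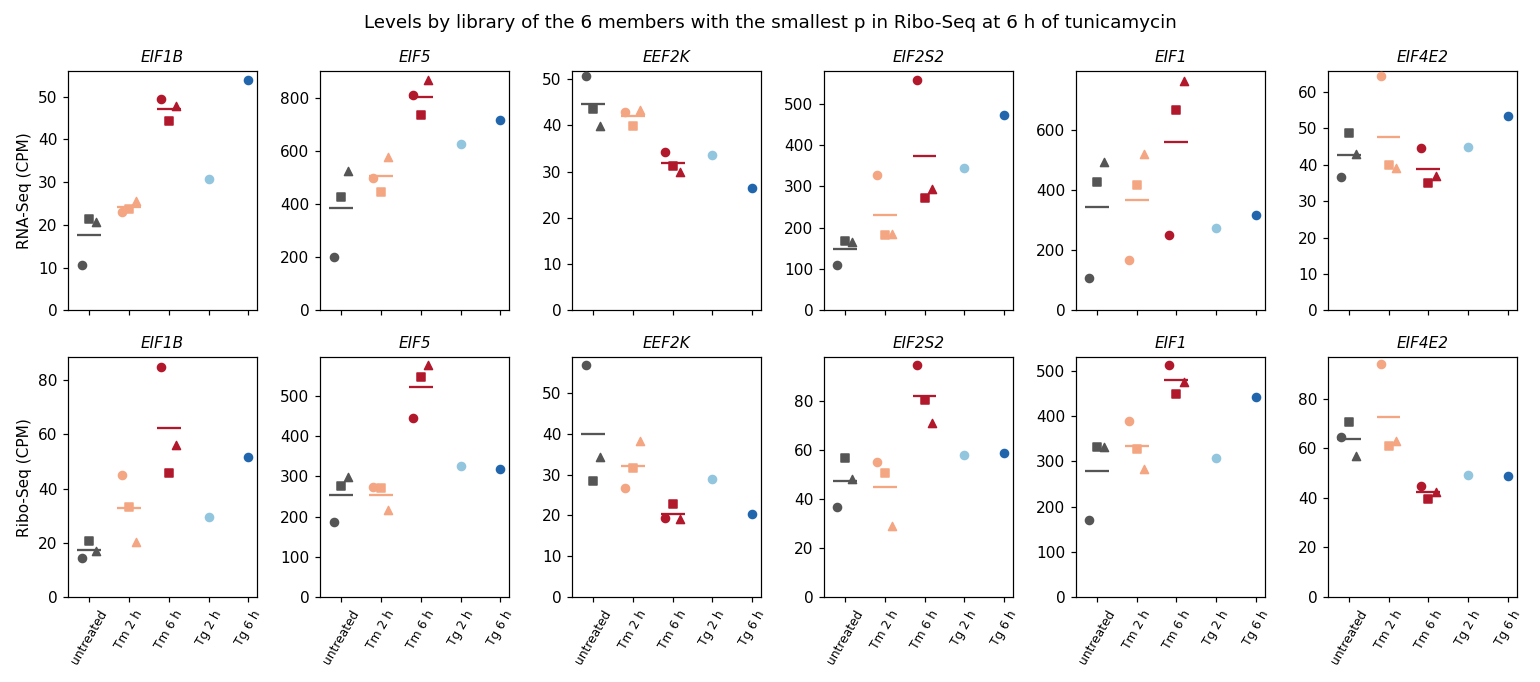
Points are libraries (circle, square and triangle for replicates 1, 2 and 3) of untreated cells, tunicamycin (Tm) and thapsigargin (Tg), and bars are means of 3 libraries; the axes give CPM in RNA-Seq (top) and Ribo-Seq (bottom). The 6 genes are those with the smallest p in Ribo-Seq at 6 h of tunicamycin; EIF1B RNA was at 44.2 to 49.5 CPM after 6 h of tunicamycin and at 10.6 to 21.4 CPM in untreated cells.

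Of the 3 eIF2 subunits, edgeR over all replicates called none in either assay at either time. EIF2S2, the beta subunit that contacts eIF5 and eIF2B, had RNA at 557, 270.4 and 292 CPM after 6 h of tunicamycin, against 110.4, 167 and 166 CPM in untreated cells. The groups did not overlap, and replicate 1 was the highest treated and the lowest untreated library (log2 fold change 1.34 ± 0.36, edgeR adjusted p = 0.11; DESeq2 adjusted p = 0.00946). From replicates 2 and 3 alone the log2 fold change was 0.79, which edgeR called (adjusted p = 0.000424). Its footprints were at 94.5, 80.2 and 71.1 CPM, against 36.7, 56.7 and 48.0 CPM in untreated cells, again without overlap (log2 fold change 0.80 ± 0.29, edgeR adjusted p = 0.288). EIF2S1, the alpha subunit that PERK phosphorylates, had RNA at 242, 155 and 168 CPM after 6 h, against 97.3, 158 and 155 CPM in untreated cells, and these overlapped. EIF2S1 footprints were at 162, 114 and 119 CPM, against 93.9, 81.2 and 98.0 CPM, and did not overlap (log2 fold change 0.53 ± 0.32, edgeR adjusted p = 0.545). EIF2S3, the gamma subunit that binds the tRNA and GTP, had RNA at 302, 254 and 267 CPM after 6 h, above the 154, 218 and 197 CPM of untreated cells in every library (log2 fold change 0.53 ± 0.23, edgeR adjusted p = 0.271). In footprints it overlapped, at 75.4, 72.6 and 65.3 CPM after 6 h, against 90.8, 48.3 and 62.5 CPM in untreated cells (log2 fold change 0.08 ± 0.31).

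The 5 eIF2B genes, which encode the guanine nucleotide exchange factor of eIF2, were all above 0 in RNA-Seq at 6 h, with log2 fold changes of 0.14 to 0.60, and none was called. With library size alone EIF2B1, EIF2B4 and EIF2B5 changed sign. EIF2B3, the gamma subunit of the catalytic part, was the highest. Its RNA was at 50.9, 31.1 and 33.9 CPM after 6 h of tunicamycin, against 18.9, 30.5 and 26.9 CPM in untreated cells, with no overlap (log2 fold change 0.60 ± 0.30, edgeR adjusted p = 0.321). Its footprints were at 36.5, 19.7 and 21.7 CPM, against 16.0, 14.7 and 17.2 CPM, also with no overlap (0.70 ± 0.33, edgeR adjusted p = 0.418). EIF2B4, the delta subunit of the regulatory part, was the lowest in RNA-Seq, at 31.0, 22.6 and 23.7 CPM after 6 h, against 20.6, 26.0 and 23.8 CPM in untreated cells. EIF2B1, the alpha subunit that senses phosphorylated eIF2, overlapped in both assays, with RNA at 95.3, 61.3 and 62.0 CPM after 6 h, against 52.8, 68.7 and 61.3 CPM in untreated cells. In each of these genes replicate 1 was the highest library after tunicamycin, and replicates 2 and 3 lay close to the untreated ones. EIF2B2 (beta) had RNA at 55.7, 36.2 and 38.1 CPM, against 33.7, 32.9 and 29.2 CPM in untreated cells. EIF2B5, the catalytic epsilon subunit, had RNA at 75.9, 52.8 and 53.8 CPM, against 47.8, 51.3 and 48.7 CPM in untreated cells. Neither of these 2 overlapped, and neither was called. Footprints of the 5 genes had log2 fold changes of -0.08 (EIF2B1) to 0.70 (EIF2B3) at 6 h. EIF2A and EIF2D, which can place initiator or other tRNA without eIF2, had RNA log2 fold changes of 0.64 ± 0.25 and 0.26 ± 0.25 at 6 h, the second of which changed sign with library size alone. EIF2A RNA was at 159, 111 and 108 CPM after 6 h of tunicamycin, against 77.1, 78.7 and 88.0 CPM in untreated cells. The groups did not overlap on the TMM scale (edgeR adjusted p = 0.247, not called). Whether the ER stress response element printed above bears on this RNA was not tested.

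No gene of eIF3, the 13-subunit scaffold that binds the small ribosomal subunit, was called by edgeR over all replicates. At 6 h of tunicamycin all 13 genes were above 0 in RNA-Seq (median 0.42, range 0.19 for EIF3L to 0.78 for EIF3C), and 12 of 13 in Ribo-Seq (median 0.23, range -0.28 for EIF3J to 0.57 for EIF3C). With library size alone EIF3G, EIF3H, EIF3K and EIF3L changed sign in RNA-Seq. EIF3F, a subunit with a deubiquitinase-like fold, had RNA at 247, 218 and 259 CPM after 6 h of tunicamycin, above the 131, 178 and 191 CPM of untreated cells in every library (log2 fold change 0.53 ± 0.22, edgeR adjusted p = 0.26). EIF3J, a loosely bound subunit with a role in ribosome recycling, had RNA at 133, 129 and 148 CPM, against 46.1, 105 and 102 CPM in untreated cells, also without overlap (0.70 ± 0.30, edgeR adjusted p = 0.269; 0.41 without untreated replicate 1). Its footprints overlapped widely, at 100.2, 324 and 121 CPM after 6 h, against 36.1, 239 and 387 CPM in untreated cells. EIF3L RNA was at 238, 161 and 174 CPM, against 179, 158 and 166 CPM in untreated cells, and overlapped. EIF3D, which can bind the cap of some mRNAs, had RNA at 319, 189 and 203 CPM after 6 h, against 164, 170.2 and 171 CPM in untreated cells. EIF3I, a beta-propeller subunit, had RNA at 363, 239 and 257 CPM, against 172, 246 and 241 CPM in untreated cells. EIF3D did not overlap and EIF3I did. EIF3G, an RNA-binding subunit, had the highest footprint fold change of the class at 2 h, at 145, 144 and 225 CPM, just above the 114, 142 and 143 CPM of untreated cells (0.36 ± 0.26, not called). EIF3C shares reads with its near-identical copy EIF3CL, so its counts (980 to 3716 reads in RNA-Seq, and 4 to 30 in Ribo-Seq) are uncertain.

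The eIF4 genes showed no common direction. In RNA-Seq at 6 h, 7 of 9 were above 0 (median 0.19), in Ribo-Seq 3 of 9 (median -0.11), and none was called; with library size alone EIF4B, EIF4E and EIF4G3 changed sign in RNA-Seq. EIF4E2, the cap-binding relative 4EHP that represses translation, was the lowest in RNA-Seq, with RNA at 44.5, 35.0 and 36.8 CPM after 6 h, against 36.7, 48.7 and 42.9 CPM in untreated cells. Its footprints were at 44.9, 39.7 and 42.5 CPM, below all 3 untreated libraries at 64.5, 70.4 and 56.8 CPM (log2 fold change -0.59 ± 0.25, edgeR adjusted p = 0.355, not called). EIF4E, the cap-binding protein, had footprints at 12.5, 14.5 and 12.3 CPM, below the 16.7, 17.7 and 20.5 CPM of untreated cells in every library (-0.48 ± 0.33, edgeR adjusted p = 0.611). Its RNA was at 73.9, 55.7 and 60.6 CPM, against 40.2, 68.4 and 74.9 CPM in untreated cells, and overlapped. EIF4B, which stimulates the helicase, had the lowest footprint fold change of the class at both times. For EIF4B footprints were at 49.3, 48.8 and 56.6 CPM after 6 h, against 173, 39.0 and 46.7 CPM in untreated cells, where replicate 1 stood far above the others. The log2 fold change of -0.75 ± 0.47 became 0.35 from replicates 2 and 3 alone. EIF4G1, the main scaffold, had the highest, with footprints at 485, 746 and 637 CPM, against 455, 466 and 514 CPM in untreated cells (0.38 ± 0.29), and these overlapped. EIF4H, a helper of the helicase like eIF4B, had RNA at 390.5, 304 and 291 CPM, against 166, 299.6 and 269.9 CPM in untreated cells. EIF4A2, a paralog of the helicase, had RNA at 341, 233 and 247 CPM, against 181, 219.5 and 219 CPM in untreated cells (0.41 ± 0.29, not called). EIF4A1, the major helicase gene, had 1547 to 3145 reads in RNA-Seq and 30 to 109 in Ribo-Seq; in RefSeq it lies inside the read-through gene SENP3-EIF4A1, so its counts are uncertain. EIF4G2 and EIF4G3, a truncated and a full-length scaffold paralog, had RNA log2 fold changes of 0.33 ± 0.32 and 0.02 ± 0.19. The poly(A)-binding proteins PABPC1 and PABPC4, which tie the mRNA tail to eIF4G, stood at -0.12 ± 0.31 and 0.07 ± 0.36 in RNA-Seq, where PABPC4 changed sign with library size alone.

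EIF5, the GTPase-activating protein of eIF2 whose mRNA is controlled by its own start-codon context, came next to EIF1B in Ribo-Seq and after EIF2S2 in RNA-Seq. Its RNA was at 811, 734 and 868 CPM after 6 h of tunicamycin, against 202, 427 and 522 CPM in untreated cells. No treated library overlapped an untreated one (log2 fold change 1.07 ± 0.32, edgeR adjusted p = 0.155, not called; DESeq2 adjusted p = 0.019). Footprints were at 187, 275 and 298 CPM in untreated cells, 274, 272 and 216 CPM after 2 h and 446, 547 and 576 CPM after 6 h. The libraries at 6 h were above all others (1.05 ± 0.28 over untreated cells, edgeR adjusted p = 0.125; 1.04 ± 0.28 over 2 h, edgeR adjusted p = 0.139). From replicates 2 and 3 alone edgeR called both (adjusted p = 0.0322 and 0.0157). EIF5B, the GTPase that joins the subunits, had RNA at 129, 146 and 145 CPM after 6 h, against 85.9, 124 and 126 CPM in untreated cells. EIF6, which keeps the large subunit free, had RNA at 172, 116 and 128 CPM, against 53.8, 115 and 112 CPM in untreated cells. Neither of these 2 overlapped, and neither was called. EIF5A, the hypusine-bearing factor that helps the ribosome through difficult peptide bonds and in termination, stood at 0.15 ± 0.34 in RNA-Seq and 0.05 ± 0.32 in Ribo-Seq, and changed sign in both with library size alone. Its paralog EIF5A2 had footprints at 16.2, 19.2 and 18.6 CPM after 6 h, all below the 34.5, 28.1 and 45.5 CPM of 2 h (edgeR adjusted p = 0.212, not called).

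Over all replicates edgeR called none of the 4 measured genes of the elongation factors. From replicates 2 and 3 alone it called 22 of 49 members in RNA-Seq between 6 h and 2 h (44.9%, against 25.1% of all genes). EEF2 (0.36, edgeR adjusted p = 0.0203) and EEF1A1 (0.36, edgeR adjusted p = 0.0435) were among them, beside genes of eIF2, eIF2B, eIF3 and eIF4. EEF1A1, the tRNA-carrying alpha subunit of eEF1, had RNA at 5289, 3488 and 3954 CPM after 6 h of tunicamycin, against 3257, 3407 and 3308 CPM in untreated cells. The groups did not overlap, by a small margin (log2 fold change 0.35 ± 0.28, edgeR adjusted p = 0.479). Its footprints, at 196, 91.1 and 71.5 CPM after 6 h and 125, 95.7 and 75.1 CPM in untreated cells, overlapped. Copies of this gene elsewhere in the genome make its short reads hard to assign. EEF2, the translocase, had RNA at 1726, 1749.9 and 1782 CPM, against 1401, 1612 and 1533 CPM in untreated cells (0.21 ± 0.21, edgeR adjusted p = 0.568; the sign turned with library size alone). EEF2 footprints were at 1827, 2061 and 1879.7 CPM, against 2242, 1222 and 1296 CPM in untreated cells, where replicate 1 was above the treated libraries. EEF1B2 (beta), one of the exchange factors of eEF1A, had RNA at 384, 194 and 213 CPM, against 205, 188 and 200.2 CPM in untreated cells, with treated replicate 1 alone well above them. EEF1B2 footprints were at 90.4, 59.2 and 59.7 CPM, against 65.1, 54.7 and 67.3 CPM. EEF1D (delta), the other, had RNA at 80.8, 101 and 94.8 CPM, against 42.5, 99.6 and 87.3 CPM in untreated cells, and footprints at 45.8, 57.4 and 41.0 CPM, against 20.3, 52.3 and 42.2 CPM; both overlapped.

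EEF2K, the calcium-dependent kinase that switches eEF2 off, stood lower after tunicamycin. Its RNA was at 34.3, 31.3 and 29.9 CPM after 6 h, against 50.6, 43.4 and 39.8 CPM in untreated cells, and its footprints were at 19.4, 22.9 and 19.1 CPM, against 56.9, 28.6 and 34.2 CPM. Every treated library was below every untreated one in both assays. The log2 fold changes were -0.49 ± 0.19 in RNA-Seq and -0.97 ± 0.31 in Ribo-Seq, and edgeR called neither (adjusted p = 0.239 and 0.219); from replicates 2 and 3 alone it called the RNA-Seq one (adjusted p = 0.0145). In Ribo-Seq untreated replicate 1 was the highest library, and without it the log2 fold change was -0.57. Of the termination and recycling factors, ETF1 (eRF1, which reads stop codons) had RNA at 702, 559.8 and 624 CPM, above the 196, 455 and 458 CPM of untreated cells in every library (0.77 ± 0.32, edgeR adjusted p = 0.263; 0.47 without untreated replicate 1). Its footprints, at 328, 365 and 311 CPM, were also above the 158, 235 and 237 CPM of untreated cells in every library (0.67 ± 0.30, edgeR adjusted p = 0.397). ABCE1, which splits the ribosome after termination, had RNA at 263, 172 and 179.9 CPM, against 87.0, 162 and 171 CPM in untreated cells. GSPT1 (eRF3, the GTPase partner of eRF1) had RNA at 197, 226 and 246 CPM, against 116, 231 and 221 CPM in untreated cells, and overlapped.

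**Figure D3:**
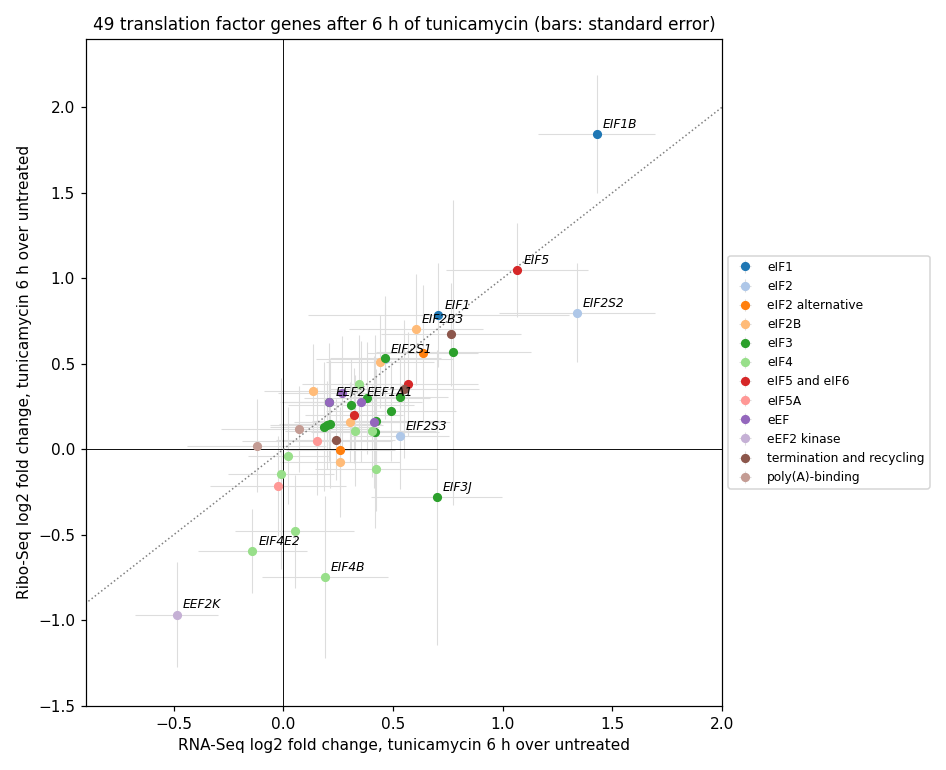
Each point is 1 of 49 genes, coloured by class, with its log2 fold change at 6 h of tunicamycin over untreated cells in RNA-Seq (horizontal) and Ribo-Seq (vertical); bars are standard errors and the dotted line marks equal change. Most points crowd right of the centre with bars that overlap, EIF1B (1.43 and 1.84) and EIF5 (1.07 and 1.05) lie highest along the line, and EEF2K (-0.49 and -0.97) lies lowest.

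Without replicate 1 the spread was smaller and more members passed, at a similar rate to other genes at 6 h over untreated cells. From replicates 2 and 3 alone, edgeR called 12 of 49 members in RNA-Seq at 6 h (9 higher and 3 lower, 24.5%), against 19.4% of 28828 genes (10.6% higher and 8.82% lower). The 9, with their log2 fold changes in that fit, were EIF1B (1.16), EIF2S2 (0.79), EIF5 (0.78), EIF1 (0.66), EIF3J (0.45), EIF2A (0.42), ETF1 (0.40), EIF3F (0.40) and EIF2S3 (0.35). The 3 were EEF2K (-0.42), EIF5A2 (-0.37) and EIF4E2 (-0.33). Several genes whose ranges did not overlap over all replicates were not called there, among them EIF2B3 (0.21), EIF3D (0.22), EIF6 (0.13) and ABCE1 (0.10). Between 6 h and 2 h the same fit called 22 of 49 (21 higher and 1 lower, 44.9%), against 25.1% of all genes (12.6% higher and 12.5% lower). On the initiation side these were EIF2S1, EIF2S2, EIF2S3, EIF2B3, EIF3B, EIF3C, EIF3D, EIF3E, EIF3F, EIF3J, EIF3M and EIF4A2. The other higher ones were EEF1A1, EEF2, EIF1, EIF1B, EIF2A, EIF5, ETF1, GSPT1 and ABCE1, and the lower one was EEF2K. With the replicate number as a block and without RNA-Seq untreated replicate 1, it called 15 (30.6%) at 6 h over untreated cells and 26 (53.1%) over 2 h, against 23.9% and 33.1% of all genes. That fit in Ribo-Seq called 2 (4.08%) and 8 (16.3%), against 4.08% and 10.1%. Over all replicates edgeR called 0 of 49 members between 6 h and 2 h in RNA-Seq (2 at an unadjusted p under 0.05, 1 by DESeq2; 0.742% of all genes called by edgeR and 3.86% by DESeq2, 9.75% at an unadjusted p under 0.05). In Ribo-Seq edgeR also called 0 of 49 (5 at an unadjusted p under 0.05, 1 by DESeq2; 0.752% and 2.65% of all genes called, 10% at an unadjusted p under 0.05). Ribo-Seq from replicates 2 and 3 alone called 2 members at 6 h (EIF1B and EIF5, 4.08%), against 2.47% of all genes, and 1 between 6 h and 2 h (EIF5, 2.04%), against 4.18%.

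Initiation was then set against elongation, using the 30 genes of eIF2, eIF2B, eIF3 and eIF4 and the 4 measured eEF genes, as medians with no test. The replicate SD printed beside a difference comes from medians taken in single libraries. It describes their spread and is not the error of the difference, which comes from fitted fold changes. In RNA-Seq the classes stood together. At 6 h of tunicamycin initiation was at 0.36 and elongation at 0.31, and at 2 h at 0.16 and 0.13, differences of 0.05 and 0.03 that are smaller than the spread between replicates (SD 0.13 and 0.11). In Ribo-Seq at 2 h the medians were further apart, with initiation at -0.04 and elongation at 0.24, a difference of -0.28 beside a replicate SD of 0.18. Without Ribo-Seq 2 h replicate 3 it was -0.14, within that SD, and without untreated replicate 3 it was -0.17. At 6 h they were at 0.15 and 0.28, a difference of -0.12 within the SD of 0.13. By library the difference in Ribo-Seq was -0.21, 0.01 and 0.13 in the 3 untreated libraries, 0.04, 0.02 and -0.28 at 2 h and -0.13, -0.04 and 0.01 at 6 h, and these overlapped. At 2 h only replicate 3 was below 0.

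Footprints per RNA (the ratio of Ribo-Seq to RNA-Seq, an estimate of translational efficiency) were tested as an interaction of assay and treatment in one model. edgeR called 0 of 49 members at 2 h, at 6 h and between them (0 at an unadjusted p under 0.05 and 0 by DESeq2 in each), against 0% of 18500 genes in each. At an unadjusted p under 0.05 were 4%, 3.82% and 2.32% of all genes at 2 h, at 6 h and between them, and DESeq2 called 0.0216%, 0.027% and 0.0432%. With a median SE of 0.40, changes of the size seen in these members could not be told from 0. At 2 h initiation was at -0.10 and elongation at 0.33, a difference of -0.43 beside a replicate SD of 0.14. In libraries paired by number the difference was -0.31, -0.32 and -0.39 at 2 h and 0.14, -0.21 and 0.06 in untreated cells, so the 3 pairs at 2 h were below all 3 untreated pairs. Every pair was measured from the mean of the same 3 untreated pairs, so the pairs at 2 h share its error. The elongation side is a median of 4 genes, and how often other small gene sets separate this way was not tested. Of the 4 eEF genes, EEF1D had the highest log2 ratio change (0.47 ± 0.42) and EEF1A1 the lowest (-0.05 ± 0.48), with EEF1B2 at 0.40 ± 0.53 and EEF2 at 0.27 ± 0.36. On the initiation side, the eIF2 subunits were the lowest class (EIF2S1 -0.13 ± 0.42, EIF2S2 -0.59 ± 0.42, EIF2S3 -0.45 ± 0.36). At 6 h the difference between the classes was -0.13, within the SD of 0.21, and 6 h over 2 h it was 0.25, beside an SD of 0.16. Without any 1 library the difference at 2 h was between -0.47 and -0.23: -0.23 without RNA-Seq untreated replicate 1, -0.24 without Ribo-Seq 2 h replicate 3, -0.27 without RNA-Seq 2 h replicate 1 and -0.28 without Ribo-Seq untreated replicate 1.

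**Figure D4:**
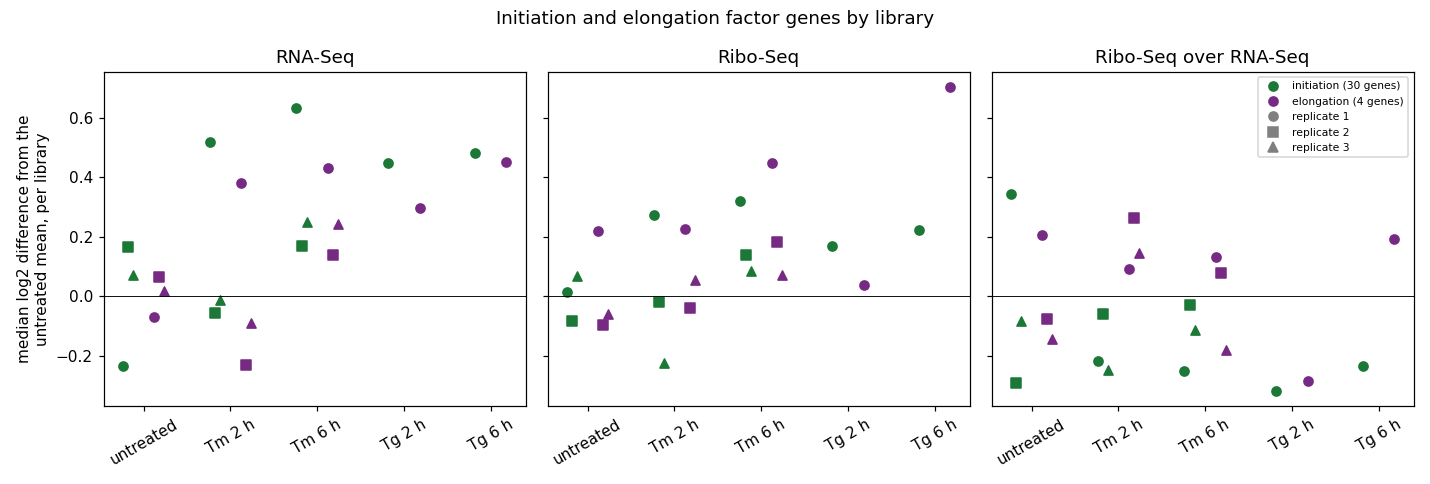
Points are libraries (circle, square and triangle for replicates 1, 2 and 3); the vertical axis gives the median log2 difference from the untreated mean over 30 initiation genes (green) and 4 elongation genes (purple), in RNA-Seq, Ribo-Seq and their ratio by pairs of equal number. In RNA-Seq the colours move together and replicate 1 stands off in every group with 3 libraries; in the ratio at 2 h of tunicamycin (Tm) purple lies above green in all 3 pairs. Thapsigargin (Tg) points are single libraries.

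The pyrimidine starts did not mark out a group in the ratio. The 12 members with such a start had a median log2 ratio change of -0.04 at 2 h and -0.13 at 6 h of tunicamycin, and the 28 measured members without one -0.08 and -0.04, beside -0.02 and -0.08 over all genes. The 9 measured members whose mRNAs are reported as TOP mRNAs stood at -0.04 and 0.04. Among them PABPC1 had a log2 ratio change of 0.21 ± 0.40 at 6 h and EIF4B, with its high footprint value in untreated replicate 1, -0.80 ± 0.59.

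Thapsigargin has 1 library per time, so its values have no replicate check and no test, and a change past 2-fold is counted. Both RNA-Seq libraries are labelled R1, like the tunicamycin libraries that stood off. Mitochondrial mRNAs took 0.587% and 0.492% of their counts. They took 0.443% and 0.479% in tunicamycin replicate 1, and 1.3% to 1.61% in tunicamycin replicates 2 and 3. In untreated replicates 1, 2 and 3 they took 1.06%, 1.18% and 1.34%, so untreated replicate 1 did not share the low value. In the thapsigargin RNA-Seq libraries the drug and a trait of the treated R1 libraries cannot be told apart. In RNA-Seq 2 of 49 members were past 2-fold at 2 h (4.08%), against 42.5% of all genes, and 6 of 49 at 6 h (12.2%), against 48.4%. Without RNA-Seq untreated replicate 1 the count was 1 at 2 h (against 27.1% of all genes) and 4 at 6 h (against 35.6%). Those 4 were 3 higher and 1 lower, against 14.8% and 20.8% of all genes. With all untreated libraries the 2 and the 6 were all higher. In that direction 6.7% of all genes at 2 h and 9.64% at 6 h passed 2-fold. They were EIF2S2 (1.22 at 2 h and 1.68 at 6 h on the log2 scale) and EIF4A2 (1.16 and 1.21) at both times, and EIF1B (1.62), EIF3C (1.16), EIF2A (1.02) and EIF2B4 (1.01) at 6 h. EIF4A2 RNA was at 461 CPM after 2 h and 478 CPM after 6 h of thapsigargin, both above every untreated library (181, 219.5 and 219 CPM). PABPC1 RNA was the lowest of the members at 6 h, at 397 CPM, against 521, 913 and 818 CPM in untreated cells (-0.92), and EEF2K was at 26.4 CPM, against 50.6, 43.4 and 39.8 CPM (-0.76).

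In Ribo-Seq 4 of 49 members were past 2-fold at 2 h of thapsigargin (8.16%, against 32.3% of all genes) and 6 at 6 h (12.2%, against 42.6%). The count at 2 h was 2 without Ribo-Seq untreated replicate 2 or without replicate 3. Leaving out 1 untreated library at a time gave 7 to 8 at 6 h. EIF2B3 and EIF2B4, subunits of the catalytic and the regulatory part of eIF2B, were both higher. EIF2B3 was past 2-fold at both times and EIF2B4 at 6 h only. EIF2B4 footprints were at 39.5 CPM after 2 h and 56.6 CPM after 6 h, against 23.4, 19.4 and 22.1 CPM in untreated cells, and EIF2B3 footprints at 37.0 CPM and 35.7 CPM, against 16.0, 14.7 and 17.2 CPM. EIF1B footprints were at 51.6 CPM after 6 h, again above every untreated library. EEF2 footprints were at 3199 CPM after 6 h, against 2242, 1222 and 1296 CPM in untreated cells (1.01), and EIF4E footprints at 7.66 CPM, against 16.7, 17.7 and 20.5 CPM (-1.25). The other changes past 2-fold were lower and rest on low or uneven counts: EIF3C at both times, and EIF3J and EIF4A1 at 2 h.

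The thapsigargin ratio moved past 2-fold for 2 of 49 members at 2 h (4.08%, against 30.5% of all genes) and for 7 at 6 h (14.3%, against 42.5%). At 6 h EEF2 was higher (1.16), while EIF2S2 (-1.24), EIF4E (-1.40), EIF4A2 (-1.12), EEF1A1 (-1.17), EIF3J (-1.15) and EIF3C (-2.31) were lower. The 3 eIF2 subunits and the 2 alternatives EIF2A and EIF2D, a separate class, were all below 0 at both times, 5 of 5. Most members were not above 0 either, with 19 of 49 above it at 2 h and 21 of 49 at 6 h. Over all genes more ratios fell past 2-fold than rose, 18.1% against 12.4% at 2 h and 26.8% against 15.7% at 6 h. With library size alone EIF2S1 changed sign at 2 h and EIF2D at 6 h. Untreated replicates decide the count at 6 h, which was 13 without Ribo-Seq untreated replicate 2 and 11 without RNA-Seq untreated replicate 1; at 2 h it was 4 without Ribo-Seq untreated replicate 1 and 1 without Ribo-Seq untreated replicate 3. The elongation median was -0.16 at 2 h and 0.32 at 6 h, and the initiation median -0.17 and -0.14. The comparisons of both drugs share the untreated libraries, and each is given here on its own.

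Around these factors, a list of 42 regulators and modifiers of translation was read from the same fits (chosen, like the members, with earlier results of these data known). At 6 h of tunicamycin edgeR called 2 of 42 in RNA-Seq, both higher (against 1.5% of all genes), and 1 of 41 in Ribo-Seq (against 0.84%). The median over the list was 0.28 in RNA-Seq and 0.07 in Ribo-Seq, beside -0.27 and -0.07 over all genes. EIF2AK3, which encodes PERK, the ER-resident kinase of eIF2, had RNA at 134, 101 and 118 CPM after 6 h, against 21.1, 25.0 and 27.1 CPM in untreated cells. The groups did not overlap, and it rose by a log2 fold change of 2.27 ± 0.24 (edgeR adjusted p = 0.00161). Its footprints, at 69.1, 91.2 and 88.8 CPM after 6 h and 34.7, 22.8 and 25.0 CPM in untreated cells, rose by 1.59 ± 0.26 (edgeR adjusted p = 0.0138). EIF4EBP1, which holds eIF4E away from eIF4G, had RNA at 112, 75.3 and 81.8 CPM, against 39.9, 44.9 and 38.7 CPM in untreated cells, and rose by 1.12 ± 0.24 (edgeR adjusted p = 0.0478). Its relative EIF4EBP2 went the other way without being called, with footprints at 78.7, 81.1 and 71.0 CPM after 6 h, all below the 263, 173 and 186 CPM of untreated cells (-1.43 ± 0.31, edgeR adjusted p = 0.0576). PPP1R15A (GADD34), the phosphatase subunit that reverses eIF2 phosphorylation, had RNA at 386, 536 and 590.3 CPM, against 19.5, 151 and 177 CPM in untreated cells (2.12 ± 0.65, edgeR adjusted p = 0.161, not called). After thapsigargin for 6 h EIF2AK3 RNA was at 189.8 CPM, EIF4EBP1 at 91.4 CPM and EIF4EBP2 at 58.6 CPM.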

How the data were processed

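Raw read counts per gene of 22 libraries were deposited by the authors, 1 table per library. The submitters' processing notes name STAR 2.5.4b, HTSeq, DESeq2 and GRCh38, with no roles or settings; the sources used here do not state strand use in counting or the handling of multiply mapped reads. Members and lists were chosen with earlier results of these data known, so no list supports itself.

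Genes were filtered with filterByExpr (at least 10 counts), scaled with TMM and tested with edgeR 4.0.16's quasi-likelihood test (R 4.3.3) in 1 fit per assay, with Benjamini-Hochberg adjustment over all genes tested and calls at an adjusted p under 0.05. The ratio is the interaction in a joint fit of both assays. DESeq2 1.42.0 was an alternative. Values per library are CPM scaled by TMM factors. The scripts were tested on simulated data. By the rule for named genes, values per library go to members called, the highest and lowest of each class of 3 or more, the eEF, eIF2 and eIF2B genes and EEF2K, and to called or low-p regulators; they are given mainly at 6 h of tunicamycin, and many class extremes at other times by range only.

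Same-numbered libraries deviated together (every correlation above 0.1) in RNA-Seq at 6 h over untreated cells and in Ribo-Seq, but not in RNA-Seq at 2 h over untreated cells, where the lowest was 0.0733. The correlations were highest in RNA-Seq between 6 h and 2 h, at 0.699 to 0.840. There edgeR with the replicate number as a block also called 0 of 49 members, against 2.73% of all genes.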

Additional observations from a re-analysis of the deposited data

How the results depend on the processing

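Members called at 6 h of tunicamycin over untreated cells (1 in each assay as reported) numbered 3 in RNA-Seq and 2 in Ribo-Seq by DESeq2, 2 in Ribo-Seq with no filter and 0 in Ribo-Seq with library size alone. From replicates 2 and 3 alone they numbered 12 and 2. Between 6 h and 2 h (0 as reported) DESeq2 called 1 in each assay, the compared groups alone 1 in RNA-Seq, no filter 1 in Ribo-Seq, and replicates 2 and 3 alone 22 in RNA-Seq and 1 in Ribo-Seq. With the replicate block, pairing libraries by number, EIF1B was called in RNA-Seq at 1.47 (edgeR adjusted p = 0.0193) and in Ribo-Seq at 1.81 (edgeR adjusted p = 0.0252), and no call of a member changed, while calls over all genes in RNA-Seq at 6 h over untreated cells went to 1624 with the block, against 617 without it. With the block and without untreated replicate 1 of the assay, members called numbered 15 and 2 at 6 h over untreated cells and 26 and 8 between 6 h and 2 h.

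The difference of initiation and elongation medians in Ribo-Seq became -0.48 at 2 h without the hard-to-assign genes, and at 6 h 0.083 with the block without replicate 1 and 0.22 from replicates 2 and 3 alone. Between 6 h and 2 h it became 0.43 with eIF5A added, 0.47 without the hard-to-assign genes and 0.033 from summed counts. In the ratio it was -0.27 at 2 h and 0.082 between the times from summed counts, and 0.11 at 6 h from replicates 2 and 3 alone. With library size alone, members past 2-fold at 2 h of thapsigargin numbered 0 in RNA-Seq and 4 in the ratio.

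Leaving out 1 library at a time gave 0 to 1 members called in RNA-Seq and 0 in Ribo-Seq at 6 h over untreated cells. Members past 2-fold after 2 h of thapsigargin ranged over 1 to 3 in RNA-Seq, 2 to 4 in Ribo-Seq and 1 to 4 in the ratio. After 6 h they ranged over 4 to 9 in RNA-Seq, 7 to 8 in Ribo-Seq and 6 to 13 in the ratio. The difference of medians ranged over 0.068 to 0.14 in RNA-Seq at 2 h, -0.35 to -0.14 at 2 h, -0.16 to -0.027 at 6 h and 0.072 to 0.34 between the times in Ribo-Seq, and -0.47 to -0.23 at 2 h and 0.053 to 0.34 between the times in the ratio. Members whose CPM ranges did not overlap at 6 h over untreated cells numbered 9 in RNA-Seq and 11 in Ribo-Seq by library size alone, against 21 and 13 as reported, a setting chosen after seeing the data. In all, 292 of 347 summary values stayed close, and the cause of the other 55 was not tested. The 292 include counts of 0 members that stayed at 0, as in the ratio, where edgeR called 0% of all genes. Such counts had little room to move, so the total is no measure of robustness. Footprint density by protein length was not run. Ribo-Seq depth, 4387173 to 29183769 counts, limits the ratio.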
